A study of Mus musculus with 10 samples.

Results

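The comparison set the 6 libraries of hepatocytes that received a hairpin against Wdr5 or Kat2b against the 4 libraries of hepatocytes that received a non-specific hairpin. It therefore used 10 of the 10 libraries of the series. RNA came from primary hepatocytes of male C57BL6/J mice aged 10 weeks, transduced for 72 hours with an adenovirus at 2 to 4 plaque-forming units per cell. The groups were shNS with PBS (2 libraries, A and B), shNS with 100 nM glucagon (A and B), shWDR5 with PBS (1 library, A), shWDR5 with glucagon (A and B), shKAT2B with PBS (1 library, A) and shKAT2B with glucagon (A and B). PBS or glucagon was given for 90 minutes, and each library pooled RNA of 3 culture dishes. Every group carried an adenovirus and a hairpin, each target had 1 hairpin named in the labels, and cells without virus were not analysed here. What sets the knockdown libraries apart from shNS thus cannot be told apart from what the non-specific hairpin itself does. Nothing in the labels says that A and B are separate animals, so a p-value here speaks to the spread among the pooled libraries and no further.

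WDR5 is a scaffold subunit of the methyltransferase complexes that place methyl groups on lysine 4 of histone H3, a mark of active promoters. KAT2B (PCAF) is a histone acetyltransferase that works within the SAGA and ATAC coactivator complexes and acetylates lysine 9 of histone H3. In hepatocytes both are known as cofactors of the transcription of fasting genes that glucagon switches on through cyclic AMP. The comparison asks which genes moved the same way when either was depleted.

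Values are log2 of the deposited array intensity, and precision is limited by how few libraries there are. Library medians lay between 282.1 and 298.2 on the linear scale. What treatment and arm did not account for was led by 1 component holding 78.0 percent of the residual variance. It separated the 3 glucagon libraries lettered A together with shNS PBS A (called set 1) from the other 6 libraries (set 2), which hold 1 library of each of the 6 groups. The labels name no such sets, and both shNS libraries lettered A lie in set 1, whereas both knockdown PBS libraries, also lettered A, lie in set 2. Of the knockdown libraries 4 of 6 and of the shNS libraries 2 of 4 lie in set 2, so values with the set as a term of the model, or within a set, are given beside the pooled ones. The sets were read from the residuals of these same values, so a fit with the set as a term has less residual spread by construction. Its p-values can be too small, and its calls are a description and no separate support.

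Each hairpin lowered its own target. Kat2b was not called in shWDR5 (0.10 ± 0.09, adjusted p = 0.546, limma), although its 3 values there lay above those of shNS. Kat2b stood at 6.60 in shKAT2B PBS A and at 6.92 and 6.58 in shKAT2B glucagon A and B, against 9.40 to 9.59 in the 7 other libraries. Wdr5 stood at 8.19 in shWDR5 PBS A and at 8.32 and 8.40 in shWDR5 glucagon A and B, against 9.98 to 10.07 elsewhere. Because only 1 of the arms moved, neither target was called for the pooled comparison, at -1.31 ± 0.72 for Kat2b (adjusted p = 0.437) and -0.87 ± 0.45 for Wdr5 (adjusted p = 0.401; limma, Benjamini-Hochberg, ± standard error of the model).

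Pooled over both hairpins, a small group of genes moved. Of 11480 genes tested, 160 were called (limma, Benjamini-Hochberg adjusted p below 0.05), 61 higher and 99 lower with knockdown, which is 1.39 percent of the genes tested. The size of their differences ran from 0.20 to 1.55 on the log2 scale with a median of 0.48, and 8 of them reached 1. The genes that fell most included the smooth muscle calponin Cnn1, the methionine sulfoxide reductase Msrb3, the cell cycle kinase Cdk6 and Pklr, the liver pyruvate kinase. Those that rose most included the membrane serine protease Tmprss11f, the calcium-binding protein S100g and the protocadherin Pcdh9. The pooled model counts any difference between the 2 hairpins as spread. When the same mean difference was taken from a model that gave each hairpin its own level, 1071 genes were called (395 higher, 676 lower), among them the 160.

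The pooled count rested on each of the 4 control libraries. Without shNS PBS A, shNS PBS B, shNS glucagon A or shNS glucagon B no gene passed (limma, 0 called, with 1407, 1366, 1104 and 1584 genes at an unadjusted p under 0.05 against 1774 with all libraries), so the pooled call of each gene named here ended there. The differences themselves moved less: without each of these libraries Cnn1 stood at -1.06 to -0.97 and Msrb3 at -1.17 to -1.04 on the log2 scale. From the mean of the arm effects 160, 159, 125 and 159 of the 160 genes were called without the same libraries. The count was 3 without shKAT2B PBS A, 35 without shKAT2B glucagon B, 55 without shWDR5 PBS A, 58 without shWDR5 glucagon A and 65 without shWDR5 glucagon B. With the library letter as a replicate block it was 518, and with the set as a term 658 (5.73 percent of genes tested, 305 higher and 353 lower), and all 160 genes were called in both of these fits. More calls with the set term were partly built in, because the sets came from the residuals of these values. Once libraries were centred on their medians 222 genes were called, of which 24.3 percent were higher, against 38.1 percent of the 160.

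All 160 genes were also called the same way in each arm by itself. This is largely built in, because the pooled model counts a difference between the arms as spread and both models use the same libraries. In the model with separate arms 1246 genes were called for shWDR5 (10.9 percent of genes tested) and 1791 for shKAT2B (15.6 percent). A gene was called in both arms in 1 direction in 277 cases (2.41 percent of genes tested), 112 higher (0.976 percent) and 165 lower (1.44 percent), and in opposite directions in 112 cases (0.976 percent). Both arms were measured against the same 4 shNS libraries, so an error in those libraries moves both arms together. The count was 76 without shWDR5 PBS A, 77 without shKAT2B PBS A, 102 without shNS glucagon A, 128 without shWDR5 glucagon B, 150 without shNS PBS B, 151 without shKAT2B glucagon B and 183 without shNS glucagon B. It was 930 with the replicate block and 1365 with the set term (11.9 percent of genes tested), and both held all 277. The count in opposite directions, 112 with neither, was 301 with the replicate block and 775 with the set term. After median-centring 27.0 percent of the 333 genes were higher, against 40.4 percent of the 277.

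**Figure D1:**
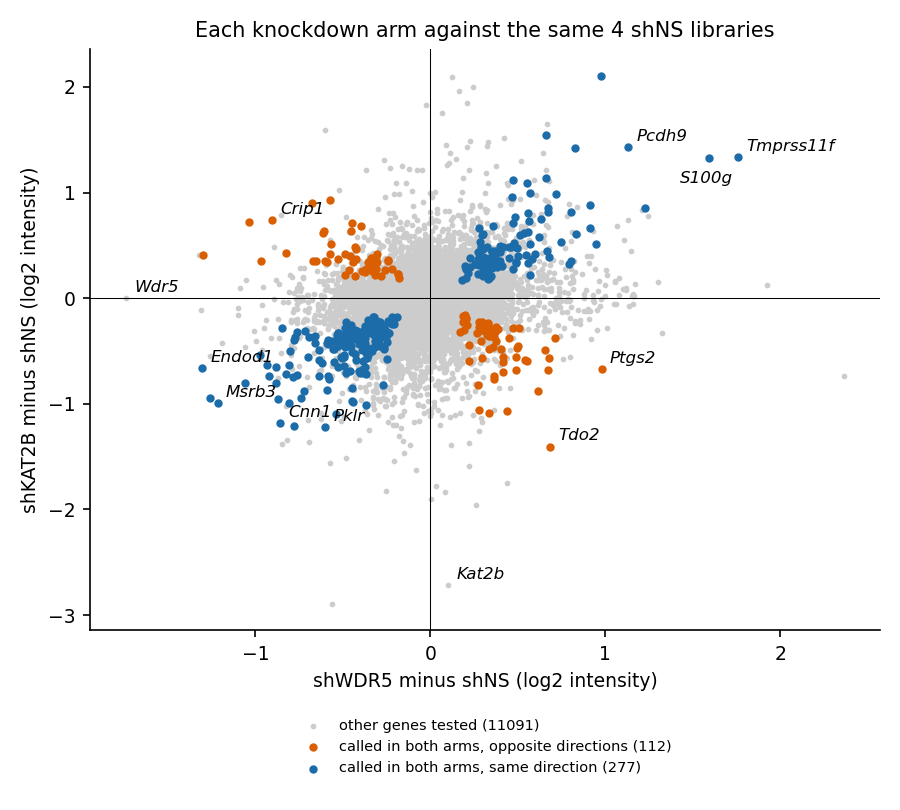
Difference of each gene tested in shWDR5 (horizontal axis) and in shKAT2B (vertical axis) from shNS, in log2 intensity, fitted with treatment as a covariate. Blue points are the 277 genes called in both arms in 1 direction, orange points the 112 called in opposite directions and grey points the other genes; both axes use the same 4 shNS libraries, which by itself draws points toward the rising diagonal.

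The shared use of the controls was addressed by giving each arm shNS libraries of its own. In the first pair of comparisons shWDR5 glucagon A was set against shNS glucagon A, both of set 1, and shKAT2B glucagon B and PBS A were set against shNS glucagon B and PBS B, all of set 2. In the second pair the hairpins were exchanged. The comparisons within a pair share no library. Among genes that differed by at least 0.5 on the log2 scale in both comparisons of the first pair, 164 moved in 1 direction (1.43 percent of genes tested; 75 higher, 89 lower) and 41 in opposite directions (0.357 percent). In the second pair 84 moved in 1 direction (0.732 percent; 37 higher, 47 lower) and 34 in opposite directions (0.296 percent). At a difference of at least 0.3 the counts were 608 and 253 in the first pair (5.3 and 2.2 percent) and 374 and 215 in the second (3.26 and 1.87 percent). More genes moved together than apart in each of these 4 counts although no control library was shared. These are counts with no test, because set 1 holds 1 library of each arm under glucagon.

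**Figure D2:**
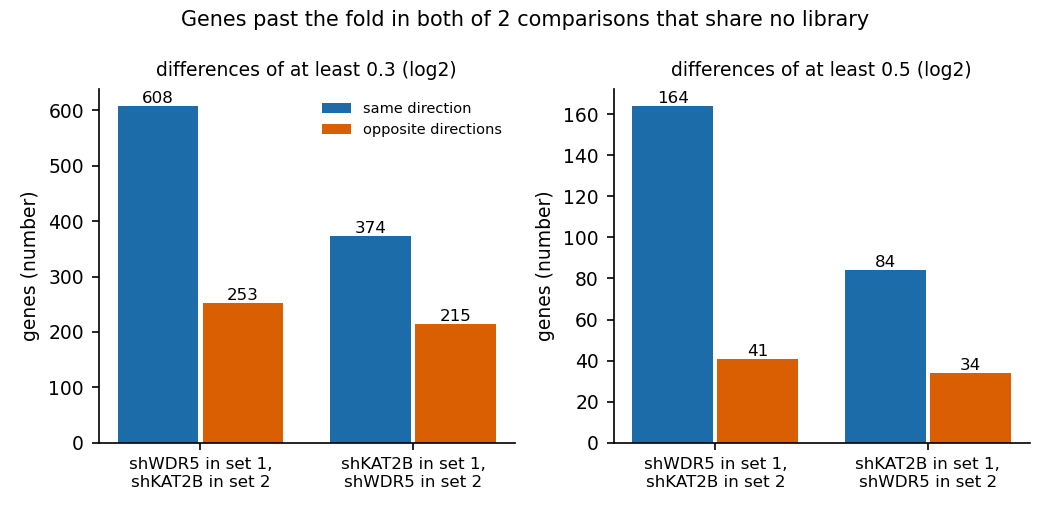
Number of genes (vertical axis) that differed from their own shNS libraries by at least 0.3 (left) or 0.5 (right) on the log2 scale in both of 2 comparisons that share no library. Blue bars count genes that moved in the same direction, orange bars genes that moved in opposite directions, for each of the 2 ways of assigning the sets; the blue bar is the taller one in each of the 4 pairs of bars.

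Calls from a model gave other counts. With shNS A libraries given to shWDR5, shNS B libraries to shKAT2B and the set as a term, 544 genes were called in 1 direction and 502 in opposite directions (limma, adjusted p below 0.05). With the letters exchanged the counts were 685 and 369. This criterion differs from the counts above in its threshold, its libraries and its set term together. In that model the estimate of the set enters the 2 contrasts with opposite signs, by its construction. Of the genes past 0.5, 55 moved in 1 direction in both pairs (22 higher, 33 lower), and 33 of these were among the 160 and 35 among the 277. They included 22 of the 24 genes named by size below, the exceptions being Apof and Dppa2. The 24 were chosen for large differences in the same libraries, so this count is a description and no support.

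Cnn1 encodes calponin, an actin-binding protein of smooth muscle. It stood at 10.41 and 10.55 in shNS PBS A and B and at 10.41 and 10.61 in shNS glucagon A and B, at 9.66, 9.65 and 9.59 in shWDR5 PBS A, glucagon A and glucagon B, and at 9.32, 9.30 and 9.32 in the same 3 libraries of shKAT2B. All 6 knockdown libraries lay below all 4 shNS libraries. A lack of overlap within each treatment was required of the 24 genes named by size. It held for 1050 of 11480 genes tested (9.15 percent) and for all 160 called, so it sets no called gene apart. The pooled difference was -1.02 ± 0.10, or 2.03-fold lower (adjusted p = 0.0114, limma), and the fall was the larger one in shKAT2B, by 0.32 (adjusted p = 0.0140).

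Asb5, an adaptor of ubiquitin ligases with ankyrin repeats, stood at 8.48 to 8.97 in shNS, at 7.26, 7.72 and 7.16 in shWDR5 PBS A, glucagon A and glucagon B, and at 7.58, 7.74 and 7.76 in shKAT2B. Ankrd23, an ankyrin repeat protein of striated muscle, stood at 9.49 to 10.06 in shNS, at 8.88, 8.86 and 8.78 in shWDR5 and at 8.61, 8.90 and 8.74 in shKAT2B. Neither gene overlapped between knockdown and control. The pooled differences were -1.11 ± 0.16 for Asb5 (adjusted p = 0.0194) and -0.91 ± 0.12 for Ankrd23 (adjusted p = 0.0192).

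Of 16 tested genes of the extracellular matrix, YAP and SRF list, 4 were called lower and 0 higher, against 0.862 and 0.531 percent over all genes tested. The pooled difference was above 0 in 4 of the 16 and below 0 in 12. With shWDR5 2 were called higher and 5 lower (4.69 and 6.17 percent over all genes tested). With shKAT2B 0 were called higher and 4 lower (6.65 and 8.95 percent). The list's median was -0.10, against -0.01 over all genes. SRF, the serum response factor, switches on actin and contractile genes when actin filaments assemble. Srf itself stood at 9.69 and 9.75 in shNS PBS A and B and at 9.40 and 9.56 in shNS glucagon A and B. It stood at 9.36, 9.09 and 9.06 in shWDR5 PBS A, glucagon A and glucagon B and at 9.14, 8.87 and 8.86 in shKAT2B, below the shNS libraries of the same treatment in each case. The other members called lower in the pooled comparison were Cnn1, the calponin gene Cnn2 and the skeletal muscle actin Acta1.

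Acta1 stood at 10.69, 10.87, 10.55 and 11.06 in shNS PBS A, PBS B, glucagon A and glucagon B, at 10.24, 9.70 and 9.97 in shWDR5 PBS A, glucagon A and glucagon B, and at 10.30, 9.53 and 10.19 in shKAT2B. Cnn2 stood at 12.25 to 12.31 in shNS and at 11.61 to 11.93 in the knockdown libraries. The spread between libraries was wider for Acta1 than for Cnn2, and neither overlapped between knockdown and control. The pooled differences were -0.49 ± 0.08 for Srf, -0.48 ± 0.06 for Cnn2 and -0.77 ± 0.16 for Acta1 (adjusted p = 0.0294, 0.0192 and 0.0491). Tagln, another actin-binding protein of smooth muscle, held on the stellate cell list, fell by 0.38 ± 0.07 on the log2 scale (adjusted p = 0.0409). Among list members that were not called were the actin gene Actb at -0.01 ± 0.04, filamin (Flna) at 0.00 ± 0.08, Vcl at -0.01 ± 0.09 and Myl9 at -0.25 ± 0.09 (adjusted p = 0.913, 0.993, 0.973 and 0.229). These 4 were picked after their values were seen.

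The promoters of 3 of the 4 members called lower hold a CArG box, the element that SRF binds, and are shown for that reason. The list was made of known SRF targets among others, and 5 of the 12 promoters of its tested members that were in the table (41.7 percent) hold one. The sequences are from RefSeq (GRCm38.p6) and give the 150 bases before the gene's start, 5′ to 3′ on the gene's strand, with CArG boxes in capitals. Acta1 lies on the minus strand at chr8:123894776-123894925, Cnn2 on the plus strand at chr10:79988450-79988599 and Srf on the minus strand at chr17:46556163-46556312.
Acta1: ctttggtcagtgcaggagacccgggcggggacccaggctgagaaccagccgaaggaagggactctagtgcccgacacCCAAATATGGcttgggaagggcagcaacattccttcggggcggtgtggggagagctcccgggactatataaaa
Cnn2: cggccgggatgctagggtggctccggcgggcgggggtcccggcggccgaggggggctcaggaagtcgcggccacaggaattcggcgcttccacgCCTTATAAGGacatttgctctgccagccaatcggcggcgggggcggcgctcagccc
Srf: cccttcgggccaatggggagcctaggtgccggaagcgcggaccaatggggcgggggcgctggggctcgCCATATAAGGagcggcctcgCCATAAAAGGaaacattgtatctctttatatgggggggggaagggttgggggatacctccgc

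The CArG box begins 73 bases before the start of Acta1 and 56 bases before that of Cnn2, and the pair in Srf begins 82 and 62 bases before it. Cnn1 had no match in its window of 300 bases, which runs from 250 before to 50 after the start. Of the genes called lower, 82 had a promoter in the table, with 110 promoters in all. As a pattern the CArG box is the same on both strands, although a single box need not be. A CArG box was in 7 of these 110 (6.36 percent), in 159 of 11762 promoters of genes tested (1.35 percent) and in 535 of all 32851 (1.63 percent). It was in 0 of 57 promoters of the genes called higher. Of 4 other motifs searched on both strands, TATAAA was in 20 of the 110 (18.2 percent, against 7.38 percent of promoters of genes tested), TGANTCA in 7 (6.36 against 5.14 percent), CACGTG in 8 (7.27 against 10.0 percent) and TGACGTCA in 0 (against 2.94 percent). A CArG box can contain TATAAA. The other genes called lower with a match were Asb5, Kctd15, the selenium-binding protein Selenbp1 and villin (Vil1), at -1.11, -0.41, -0.56 and -0.57 on the log2 scale. A match is a run of letters and not a measured binding site.

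Pklr encodes the pyruvate kinase of liver, the last step of glycolysis. It stood at 12.60 and 12.69 in shNS PBS A and B and at 12.45 and 12.70 in shNS glucagon A and B, at 12.16, 11.82 and 11.98 in shWDR5 PBS A, glucagon A and glucagon B, and at 11.43, 11.35 and 11.31 in shKAT2B. The 3 groups of libraries did not overlap. The pooled difference was -0.91 ± 0.17 (adjusted p = 0.0374), and the fall in shKAT2B, at -1.22 ± 0.07, exceeded that in shWDR5, at -0.60 ± 0.07 (adjusted p of the difference = 0.000933).

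Serpind1, the thrombin inhibitor heparin cofactor II, stood at 9.92 to 10.23 in shNS, at 9.57, 8.91 and 9.45 in shWDR5 PBS A, glucagon A and glucagon B and at 9.17, 9.15 and 8.99 in shKAT2B. Apof, a lipid transfer inhibitor protein of plasma, stood at 10.02 to 10.32 in shNS, at 9.76, 9.56 and 9.72 in shWDR5 and at 9.03, 9.29 and 9.04 in shKAT2B. Each knockdown library lay below every shNS library for both genes. The pooled differences were -0.84 ± 0.13 for Serpind1 (adjusted p = 0.0285) and -0.82 ± 0.17 for Apof (adjusted p = 0.0441). Of 23 secreted plasma and complement genes tested Serpind1 was the 1 called, against 0.862 percent of all genes tested called lower. In this list 21 of 23 had a difference below 0 and the median was -0.20, against -0.01 over all genes. With the set as a term 6 of 23 were called lower, against 3.07 percent of all genes. Of 14 lipogenesis genes 2 were called lower and 0 higher (0.862 and 0.531 percent over all genes tested). The difference was above 0 in 7 and below 0 in 7, and the list's median was -0.01. The genes called were Pklr and Gpam, which starts glycerolipid synthesis (-0.28 ± 0.06, adjusted p = 0.0408).

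Foxa3 and Prox1, transcription factors of the hepatocyte lineage, fell by 0.51 ± 0.08 and 0.48 ± 0.10 on the log2 scale (adjusted p = 0.0285 and 0.0435). Foxa3 stood at 8.85 and 8.87 in shNS PBS A and B and at 9.25 and 9.46 in shNS glucagon A and B. It stood at 8.40 and 8.47 in the PBS libraries of shWDR5 and shKAT2B and at 8.62 to 8.90 in their glucagon libraries. The groups did not overlap within a treatment, although glucagon libraries of the knockdowns reached the PBS level of shNS. These 2 were the members called of 15 tested hepatocyte identity genes, against 0.862 percent of all genes tested called lower. A difference below 0 was seen in 13 of 15, and the list's median was -0.26, against -0.01 over all genes. With the set as a term 5 of 15 were called lower (3.07 percent of all genes tested were) and the median was -0.26.

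Markers of other liver cells are given beside these genes, and their part in these results was not tested. Over all genes tested the median was -0.01 and 1.39 percent were called in the pooled comparison. Kupffer cell and leukocyte markers were above 0 in 15 of 15 tested members with a median of 0.37, and endothelial markers in 14 of 14 with a median of 0.34, with 0 members called in either list (limma). Their medians were 0.26 and 0.23 with the set as a term, with 4 and 1 members called higher (2.66 percent of all genes tested were). The summed intensity of the Kupffer list ran from 8759 to 14726 in shNS, from 11104 to 16126 in shWDR5 and from 10177 to 18853 in shKAT2B, and that of the endothelial list from 4586 to 6667, 5234 to 7457 and 4963 to 8309. The summed hepatocyte identity list ran from 50121 to 58739 in shNS, 47461 to 52083 in shWDR5 and 44223 to 49073 in shKAT2B. In bulk RNA, fewer cells of a type and less RNA per cell cannot be told apart.

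Stellate cell and fibroblast markers, which share contractile genes with the SRF list, had a median of -0.06, with 6 of 13 above 0 and 7 below. In these markers Tagln was the 1 called lower, against 0.862 percent of all genes tested. Their summed intensity ran from 24418 to 29020 in shNS, 23797 to 28969 in shWDR5 and 23274 to 27290 in shKAT2B. Cholangiocyte markers had a median of -0.22 over 5 tested members, of which the keratin gene Krt7 was called lower (-0.45 ± 0.09, adjusted p = 0.0409, limma), against the same 0.862 percent. Their summed intensity ran from 7317 to 8865, 5962 to 7187 and 6278 to 8258 in the same order. No marker had an intensity of 0, and Marco, Itgam, Cd74, Vwf, Lum, Reln, Epcam, Cldn7 and Sctr were below the filter on low values, as were the hepatocyte genes Nr1i3, Asgr1 and Asgr2.

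**Figure D3:**
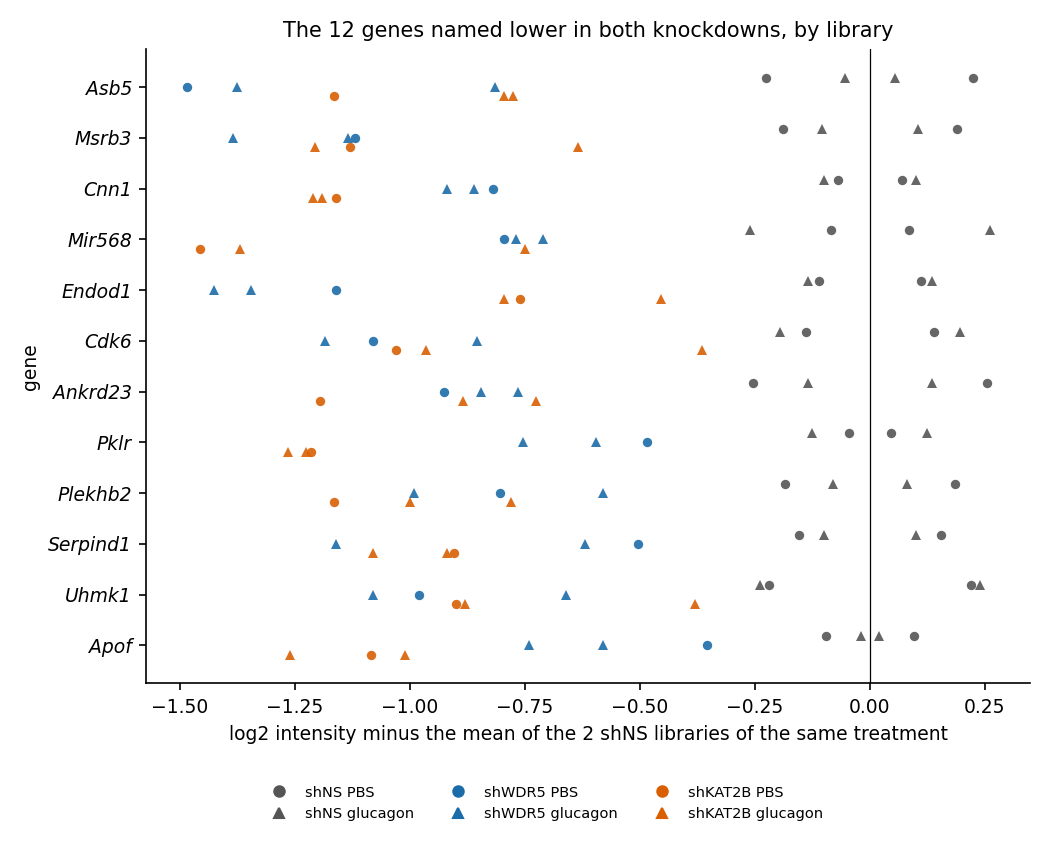
Log2 intensity of the 12 genes named as lowest, per library, minus the mean of the 2 shNS libraries of the same treatment (horizontal axis). Grey points are shNS, blue shWDR5 and orange shKAT2B libraries, with circles for PBS and triangles for glucagon. By the rule that named these genes, every blue and orange point lies to the left of every grey point of the same gene and treatment.

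The other genes with the largest falls had varied roles. Msrb3 repairs oxidised methionine. It stood at 11 in shNS PBS A and at 10.62, 10.85 and 10.64 in shNS PBS B, glucagon A and glucagon B, at 9.69, 9.61 and 9.36 in shWDR5 PBS A, glucagon A and glucagon B, and at 9.68, 10.11 and 9.54 in shKAT2B. The arms overlapped with each other and neither overlapped with shNS, a pooled difference of -1.11 ± 0.14 (adjusted p = 0.0192).

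Cdk6, a kinase that drives cells from G1 into S phase, stood at 11.51 to 11.97 in shNS, at 10.75, 10.85 and 10.52 in shWDR5 and at 10.80, 11.34 and 10.74 in shKAT2B, the highest knockdown value being that of shKAT2B glucagon A, a library of set 1. Endod1, an endonuclease-domain protein, stood at 10.53 to 10.89 in shNS, at 9.62, 9.32 and 9.24 in shWDR5 and at 10.02, 10.21 and 9.87 in shKAT2B. The shKAT2B libraries lay between the other groups, and the fall was larger in shWDR5 by 0.64 (adjusted p = 0.00598). Plekhb2, a membrane trafficking protein, differed by -0.90 ± 0.12 and Uhmk1, a kinase that phosphorylates splicing factors, by -0.83 ± 0.16. Adjusted p were 0.0285 for Cdk6, 0.0400 for Endod1, 0.0192 for Plekhb2 and 0.0378 for Uhmk1, with Cdk6 at -0.93 ± 0.15 and Endod1 at -0.99 ± 0.19.

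A feature that the platform annotation assigns to the microRNA gene Mir568 stood at 8.24 to 8.76 in shNS, at 7.61, 7.79 and 7.73 in shWDR5 and at 6.95, 7.75 and 7.13 in shKAT2B. It fell by 0.996 ± 0.181 on the log2 scale (adjusted p = 0.0366). Labelled total RNA on this array does not separate a mature microRNA from longer transcripts of its locus. In RefSeq (GRCm38.p6) Mir568 lies at chr16:43640655-43640737, beyond the end of Zbtb20 (chr16:42875689-43634392). The feature kept for Zbtb20, a gene picked after its values were seen, differed by -0.92 ± 0.26 and was not called (adjusted p = 0.123), and its other feature differed by -0.60.

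Tmprss11f, a serine protease of the cell membrane, stood at 8.32, 8.78, 8.13 and 8.79 in shNS PBS A, PBS B, glucagon A and glucagon B, at 10.19, 10.01 and 10.51 in shWDR5 PBS A, glucagon A and glucagon B, and at 10.15, 9.11 and 10.17 in shKAT2B. All knockdown libraries were above all controls, and shKAT2B glucagon A was the lowest of them. The pooled difference was 1.55 ± 0.25, or 2.92-fold (adjusted p = 0.0285).

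S100g, a calcium-binding protein of the S100 family, stood at 6.67, 7.32, 6.65 and 7.40 in shNS PBS A, PBS B, glucagon A and glucagon B, at 8.57, 8.58 and 8.62 in shWDR5 and at 8.54, 7.52 and 8.92 in shKAT2B PBS A, glucagon A and glucagon B. The value of 7.52 in shKAT2B glucagon A lay 0.87 above shNS glucagon A, its partner in set 1. The pooled difference was 1.46 ± 0.27 (adjusted p = 0.0374). Pcdh9, a cell adhesion protein of the cadherin family, stood at 8.27 to 8.67 in shNS, at 9.23, 9.96 and 9.67 in shWDR5 and at 9.92, 9.51 and 10.33 in shKAT2B, and rose by 1.28 ± 0.19 (adjusted p = 0.0214). Its other feature differed by 1.17.

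**Figure D4:**
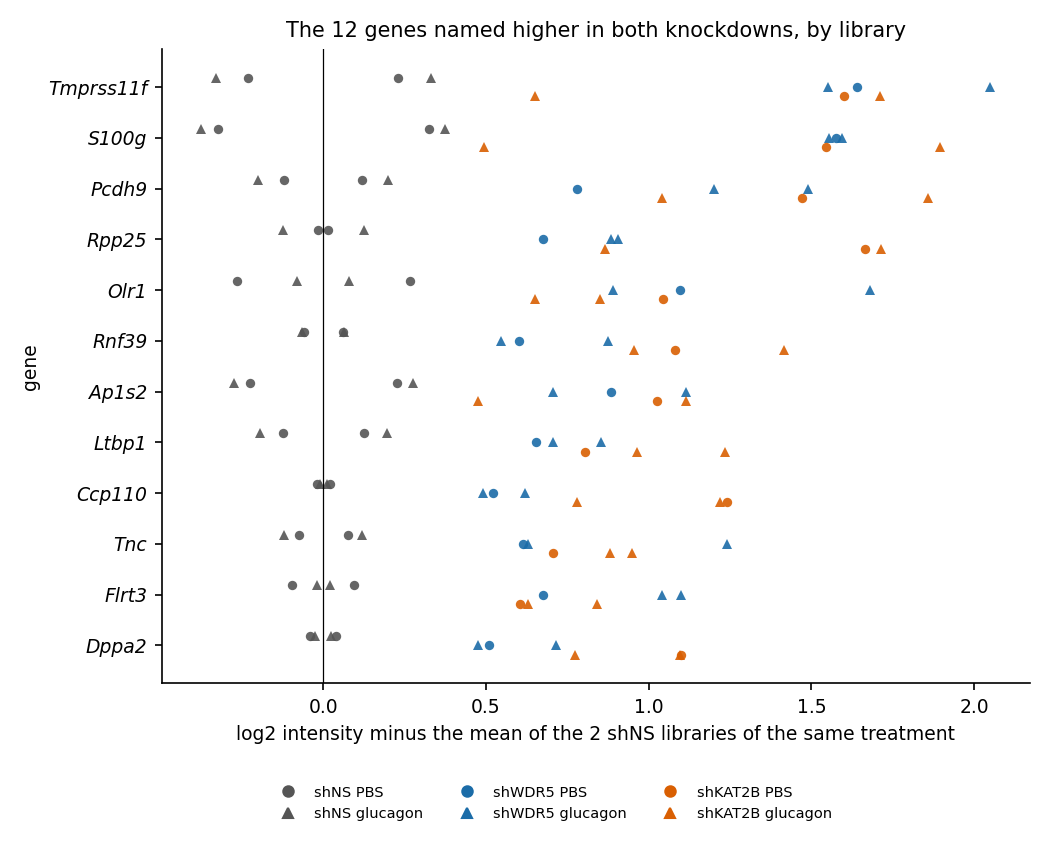
Log2 intensity of the 12 genes named as highest, per library, minus the mean of the 2 shNS libraries of the same treatment (horizontal axis). Grey points are shNS, blue shWDR5 and orange shKAT2B libraries, with circles for PBS and triangles for glucagon. By the rule that named these genes, every blue and orange point lies to the right of every grey point of the same gene and treatment.

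Olr1, a scavenger receptor for oxidised low-density lipoprotein, stood at 6.39 to 6.92 in shNS, at 7.75, 8.38 and 7.59 in shWDR5 and at 7.70, 7.35 and 7.55 in shKAT2B, and rose by 1.04 ± 0.19 (adjusted p = 0.0366). The tenascin gene Tnc stood at 10.63 to 10.97 in shNS and at 11.38 to 11.99 in the knockdown libraries, and Ltbp1, which encodes an anchor of latent TGF-beta in the matrix, at 7.67 to 8.19 and 8.57 to 9.10. Neither gene is on the extracellular matrix, YAP and SRF list, of which 0 of 16 were called higher in the pooled comparison. Neither overlapped with shNS, at 0.81 ± 0.12 and 0.85 ± 0.13 (adjusted p = 0.0212 for each). Flrt3, a leucine-rich repeat membrane protein, rose by 0.79 ± 0.11 (adjusted p = 0.0192) and Ap1s2, a subunit of a clathrin adaptor, by 0.90 ± 0.17 (adjusted p = 0.0374).

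Some of the genes that rose did so by more in shKAT2B. Rnf39, a RING finger protein, differed by 0.66 ± 0.12 in shWDR5 and by 1.14 ± 0.12 in shKAT2B, and Ccp110, which caps centrioles, by 0.55 ± 0.11 and 1.09 ± 0.11 (adjusted p of the difference = 0.0251 and 0.0105). Dppa2, known from pluripotent cells, differed by 0.57 ± 0.10 and 0.99 ± 0.10 (adjusted p of the difference = 0.0207), and its other feature by 1.003 in the pooled comparison. Rpp25, a subunit of RNase P, differed by 0.83 ± 0.19 and 1.42 ± 0.19, where the arms did not differ by the test (adjusted p = 0.0668). For the 4 genes the pooled differences were 0.90 ± 0.16, 0.82 ± 0.17, 0.78 ± 0.14 and 1.13 ± 0.22 (adjusted p = 0.0333, 0.0441, 0.0354 and 0.0407, limma). The pooled call of Ccp110 was lost whichever library was left out. Those of Mir568, Endod1, Uhmk1, Apof, S100g, Ap1s2, Tagln, Krt7, Prox1, Gpam and Acta1 held in 1 of the 10 such fits. The call of Ccp110 was also lost with quantile normalization and with no filter on low values, and that of Apof with no filter. Of the 160 genes, 17 differed between the arms, against 22.7 percent of all genes tested (2608 called for shWDR5 against shKAT2B, a contrast that uses no shNS level). A low share is built in, because the pooled model counts a difference between the arms as spread.

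Single members of other lists were called higher, against 0.531 percent of all genes tested. Dicer1, the nuclease that cuts microRNA precursors and short hairpin RNAs, stood at 10.45 and 10.42 in shNS PBS A and B, at 10.49 and 10.33 in shNS glucagon A and B and at 10.75 to 10.88 in the knockdown libraries. It did not overlap between the groups and rose by 0.38 ± 0.06 (adjusted p = 0.0255), the 1 gene called of 15 of the small RNA pathway. Tnrc6a, a partner of Argonaute proteins, was called higher in each arm, at 0.79 and 0.32 in shWDR5 and shKAT2B, and missed the pooled threshold (adjusted p = 0.0987). Slc40a1, the iron exporter ferroportin, rose by 0.35 ± 0.07 (adjusted p = 0.0442, limma), the 1 called of 19 iron and BMP genes. In this list 14 of 19 had a difference below 0 and the median was -0.08, against -0.01 over all genes. The pooled call of Slc40a1 was lost whichever library was left out.

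Sesn2, a stress-induced regulator of mTOR signalling, stood at 10.10 to 10.66 in shNS and at 10.61 to 11.01 in the knockdown libraries. These ranges overlap over both treatments, and within each treatment the knockdown libraries were higher. It rose by 0.56 ± 0.10 (adjusted p = 0.0374), the 1 called of 15 p53 targets (0.531 percent over all genes), whose median was 0.11. In the arms by themselves the antiproliferative gene Btg2 and the DNA polymerase gene Polk of the same list were also called higher in both, at 0.30 and 0.61 and at 0.29 and 0.53 in shWDR5 and shKAT2B (pooled adjusted p = 0.0581 and 0.0524).

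The counts of some lists are given by arm, and the difference of a list between the arms was not tested. Over all genes tested 4.69 percent were called higher and 6.17 percent lower with shWDR5, and 6.65 percent higher and 8.95 percent lower with shKAT2B. For both pooled 1.39 percent were called, so 0 called in a list of this size says little about its members. Of 21 ribosome biogenesis genes 8 were called higher with shWDR5 and 3 lower with shKAT2B, with medians of 0.27 and -0.11. For both pooled 0 were called. Of 18 stress genes of the endoplasmic reticulum and amino acid shortage 4 were called higher with shWDR5 and 4 lower with shKAT2B (medians 0.10 and -0.19). Of 16 NRF2 targets, genes of antioxidant defence, 12 were called lower with shKAT2B and 2 with shWDR5 (medians -0.62 and -0.06). For both pooled 0 were called. Cell cycle genes had a median of 0.74 in shWDR5, where 4 of 21 were called higher, and of 0.03 in shKAT2B, where 0 of 21 were called. Among CREB and cyclic AMP targets 0 of 23 were called for both pooled, with a median of -0.10, and among gluconeogenic genes 0 of 16, with a median of -0.09. The SAGA and ATAC subunits (median 0.02, 25 tested) and the COMPASS partners (median 0.06, 18 tested) had 0 members called for both pooled.

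**Figure D5:**
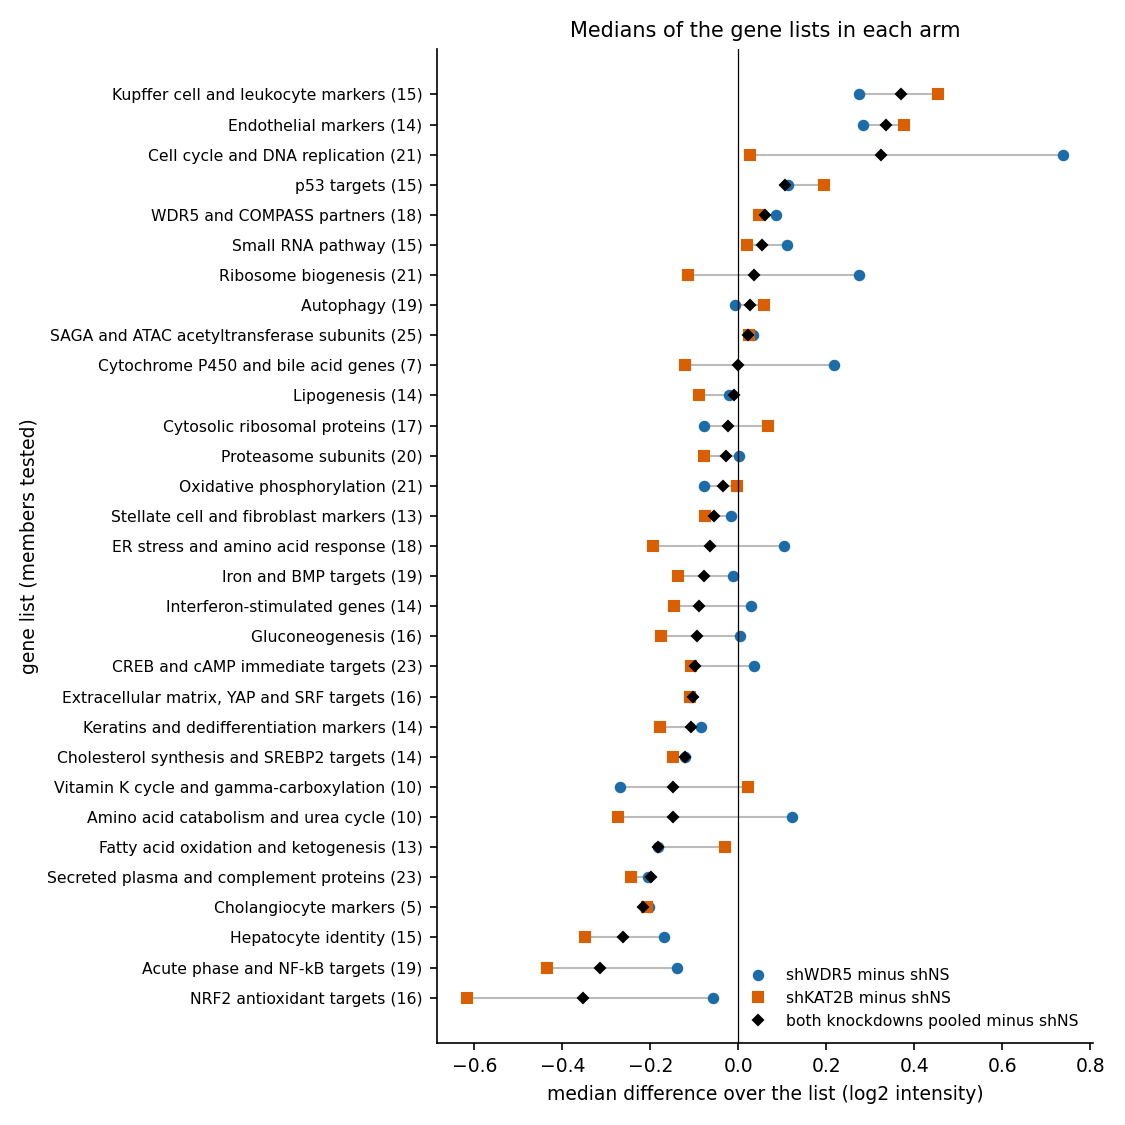
Median difference from shNS over the tested members of each of the 31 gene lists (horizontal axis, log2 intensity), with the number of members tested in brackets. Blue circles are shWDR5, orange squares shKAT2B and black diamonds both pooled; the Kupffer cell list lies at 0.27 and 0.45 and the NRF2 list at -0.06 and -0.62 in shWDR5 and shKAT2B.

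Genes called in opposite directions largely cancelled in the pooled mean. Tdo2, which starts tryptophan breakdown in liver, stood at 10.15, 10.18, 10.38 and 10.38 in shNS PBS A, PBS B, glucagon A and glucagon B, at 11.04, 10.79 and 11.08 in shWDR5 and at 8.80, 8.86 and 8.99 in shKAT2B. The 3 arms were fully apart, at 0.68 ± 0.09 and -1.41 ± 0.09 from shNS, and the pooled difference was -0.36 ± 0.54 (adjusted p = 0.816). Ptgs2, the inducible cyclooxygenase, differed by 0.98 ± 0.14 in shWDR5 and by -0.67 ± 0.14 in shKAT2B. Cenpn, a centromere protein, differed by 0.67 ± 0.18 and -0.68 ± 0.18. The reverse order was seen for the LIM protein gene Crip1 (-0.91 ± 0.13 and 0.74 ± 0.13), the immune ligand gene H60b (-1.04 ± 0.17 and 0.72 ± 0.17) and peripherin, Prph (-0.67 ± 0.10 and 0.90 ± 0.10).

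For the interaction of knockdown and treatment 0 genes were called and 13 of 11480 had an unadjusted p under 0.05 (limma). With the set as a term 0 were called. Both fits pooled the hairpins, so a difference between the hairpins counted as spread, and 2608 genes were called for shWDR5 against shKAT2B. The 13 genes (0.113 percent of those tested) are fewer than a threshold of 0.05 passes by chance. For these reasons the test cannot decide whether the effect of knockdown depends on glucagon. With only the 6 glucagon libraries 0 genes were called for both knockdowns pooled, where 591 had an unadjusted p under 0.05.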

How the data were processed

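Intensity per array feature was deposited by the authors on a linear scale (4.47 to 22694, 26913 features, 10 libraries). Taken to log2, each value falls on 2 decimals. The software, per the submitters' processing notes, was version 1.1.1 of Affymetrix Expression Console. The normalization, any filter and the genome build are not given in the sources used here, and the table was taken as normalized.

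Values were used as log2(intensity). Of the features 17873 carried 1 gene symbol in the platform annotation, 1128 several and 7912 none, and 17815 matched a RefSeq gene by identifier. For each of 16401 genes only its brightest feature on average was used (847 genes had more than 1). Dropping the 30 percent of genes with the lowest mean left 11480. limma 3.58.1 in R 4.3.3 (lmFit, eBayes with trend) fitted knockdown and treatment (7 residual degrees of freedom), or 3 arms and treatment (6), with two-sided tests and Benjamini-Hochberg adjustment over the genes tested. Both knockdown PBS groups hold 1 library, whose variance is taken to equal that of the other groups. Scripts were tested on simulated data. Tables were made with Python 3.11.15, pandas 2.3.3 and numpy 2.4.6, and figures with matplotlib 3.10.9.

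Named genes are the targets, the 12 highest and 12 lowest called in the pooled comparison and in each arm without overlap between knockdown and shNS within a treatment, up to 3 on each side called in opposite directions, and up to 4 called members of each list. The comparison, lists and rules were chosen with earlier results of these data known. Lists have counts and medians and no test. In the 4 groups with A and B the letters in the titles pair libraries. Deviations of the A libraries from their group means correlated across genes at 0.72 to 0.84 over the 6 pairs of groups (genes are not independent replicates). Both knockdown PBS libraries, each alone in its group, are outside this check. They are lettered A but lie in set 2, so the letter block puts them with libraries of set 1. Alternatives were other normalizations, centring, pseudocounts, filters, features and variance models, the letter as a block, the library set as a term, fewer libraries, separate controls and leaving out each library.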

Additional observations from a re-analysis of the deposited data

Results flagged for a closer look

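Effects that differed between the hairpins by the test of the difference itself (limma, shWDR5 minus shKAT2B, log2 scale, adjusted p from 3.35e-06 to 0.0251) were found for both targets, at 2.82 for Kat2b and -1.74 for Wdr5. Among genes called the same way in both arms they were found for Cnn1 (0.32), Endod1 (-0.64), Pklr (0.62), Apof (0.56), Rnf39 (-0.48), Ccp110 (-0.54) and Dppa2 (-0.42). Among genes called in opposite directions they stood at 2.09 for Tdo2, 1.65 for Ptgs2, 1.35 for Cenpn, -1.64 for Crip1, -1.75 for H60b and -1.57 for Prph. Features that the annotation assigns to no gene were left out of the comparisons, and 6 of 4769 of them were called in the pooled comparison when all features were fitted together, 5 higher and 1 lower.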

How the results depend on the processing

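The pooled count of 160 genes was 518 with the letter as a replicate block, 658 with the set as a term, 1071 from the mean of the 2 arm effects, and 0 with the second set only (limma, 1329 genes at an unadjusted p under 0.05) or with glucagon libraries only. The count of 277 called the same way in each arm was 930, 1365, 1109 and 0 under the replicate block, the set term, the second set only and glucagon libraries only, and 544 and 685 with separate shNS letters. For shWDR5 against shKAT2B the count of 2608 was 4137, 5787, 5193 and 300 under the same 4 settings. Leaving out each library in turn gave 0 to 222 genes for the pooled count, 76 to 349 for the same-way count and 1442 to 2679 between the arms. With the second set only, the mean of the arm effects still gave 3352 genes, and the cause of the 0 was not tested. Glucagon libraries alone leave 4 residual degrees of freedom. With separate controls, the same-direction and opposite counts were 608 and 253 (first pair) and 374 and 215 (second pair) at a log2 difference of 0.3, and 10 and 0, and 1 and 1, at a log2 difference of 1. With the lowest 50 percent of genes left out they were 109 and 25, and 55 and 22. Quantile normalization, median-centring, both pseudocounts, other filters, the mean of features and no trend kept the 3 counts of called genes within 1.5 times. Of the values of single named genes under the alternatives 600 kept their side of the threshold, 337 no longer passed and none changed sign while called. The 600 include values of the targets and of the genes called in opposite directions, which had no pooled call to lose. Of the list medians 670 moved by less than the spread between libraries and 12 by more. That spread was taken between the A and B libraries of a group. These lie in different sets, so it includes the difference between the sets and is a wide measure. The replicate block, which puts both knockdown PBS libraries of set 2 with libraries of set 1, ended no call of the 160.

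The number of libraries limits these results: the 2 PBS knockdown groups hold 1 library each, and set 1 has no PBS knockdown library.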
